A study of Mus musculus with 121 samples.

Results

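The comparison described here is that of the prefrontal cortex (PFC) of Gdnf cHyper;Nestin-Cre mice homozygous for the cHyper allele (HOM) with that of wild-type littermates (WT), taken over every gene that reached 1 cpm (reads scaled to the size of the library) in at least 3 of the libraries fitted. This left 14361 of 24412 genes, measured in 4 HOM and 7 WT libraries of the 121 libraries in the study, 1 library per mouse. HOM mice are labelled cKU/cKU and WT mice wt/wt for the Gdnf allele, and 6 heterozygous littermates (HET, wt/cKU) entered the same fit to help estimate the spread. All of these mice, WT included, are males of the GDNF cKU x Nestin-Cre strain on a mixed 129Ola/ICR/C57bl6 background, aged 2 months and untreated. Nestin-Cre recombines in neural precursors from gestation on, so the neurons and the glia of the whole brain can carry the changed allele, and the PFC is 1 of several regions affected. For 1 more mouse, M4575, the genotype labels of the regions disagree, with WT given for PFC and HOM elsewhere, so its PFC sample was left out.

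GDNF is a secreted growth factor that supports midbrain dopamine neurons and signals through the receptor GFRα1 together with the kinase RET or the adhesion molecule NCAM. In the cHyper allele, Cre places a foreign polyadenylation signal directly behind the coding sequence, which removes the native 3′ end of the transcript with the sites that hold GDNF down. The PFC receives dopamine fibres from the midbrain, and its tissue holds excitatory neurons, interneurons, astrocytes, microglia and oligodendrocytes, which wrap axons in myelin. The question behind the comparison is what this region's RNA looks like when Gdnf is raised from mid-gestation on.

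Gdnf itself was near the limit of detection and was not tested. The 4 HOM libraries held 0.0892, 0.126, 0.139 and 0.62 cpm of Gdnf, and the WT libraries 0.201 to 0.892 cpm with a median of 0.425, on 1 to 18 reads per library over the 3 genotypes. The groups overlapped, with 3 HOM libraries under the lowest WT library. The allele changes the 3′ end of the transcript, and where the reads fall along Gdnf was not examined. On so few reads, these counts do not check the genotype labels.

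Depth was lower in HOM, at 11204112 to 15842364 counts per library, than in WT, at 15161021 to 25882810 (median 21031680). Between HOM and WT, 37 genes passed edgeR's quasi-likelihood test at a Benjamini-Hochberg adjusted p under 0.1, which is 0.258% of the genes tested. Of these, 25 were higher in HOM (0.174%) and 12 were lower (0.0836%), and 1402 genes had an unadjusted p under 0.05. Other tests of the same counts called more: edgeR's likelihood ratio test 1.34% of genes higher and 0.905% lower, and DESeq2 1.04% and 0.529%. Fewer were called by the quasi-likelihood test in a fit of HOM and WT alone (7 genes), in a fit of all 3 regions (1) and at a threshold of 0.05 (17). Changes were modest: the genes called higher had a median log2 fold change of 0.41 (0.28 to 1.20) and those called lower one of -0.46 (-1.21 to -0.39), against a median of 0.003 over all genes. In 26 of the 37 genes the HOM and WT libraries did not overlap at all, compared with 204 of all genes tested (1.42%). The 37 were picked on these same libraries, so that share is no further evidence for them. The last gene inside the threshold was Lpar1 (adjusted p = 0.0981) and the first outside it was Peg3 (adjusted p = 0.103), an imprinted gene whose log2 fold change was 0.32.

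How many genes were called hung on single mice. Leaving out 1 HOM mouse gave 52 genes without M4393, 1 without M4568, 4 without M4569 and 92 without M4580. Leaving out 1 WT mouse gave 17 genes without M4326, 159 without M4329, 10 without M4394, 43 without M4396, 16 without M4529, 19 without M4609 and 62 without M4612. Each of the 37 genes kept the sign of its change in each of those fits, and Gjb1 alone passed the threshold in all 11 of them. 

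**Figure D1:**
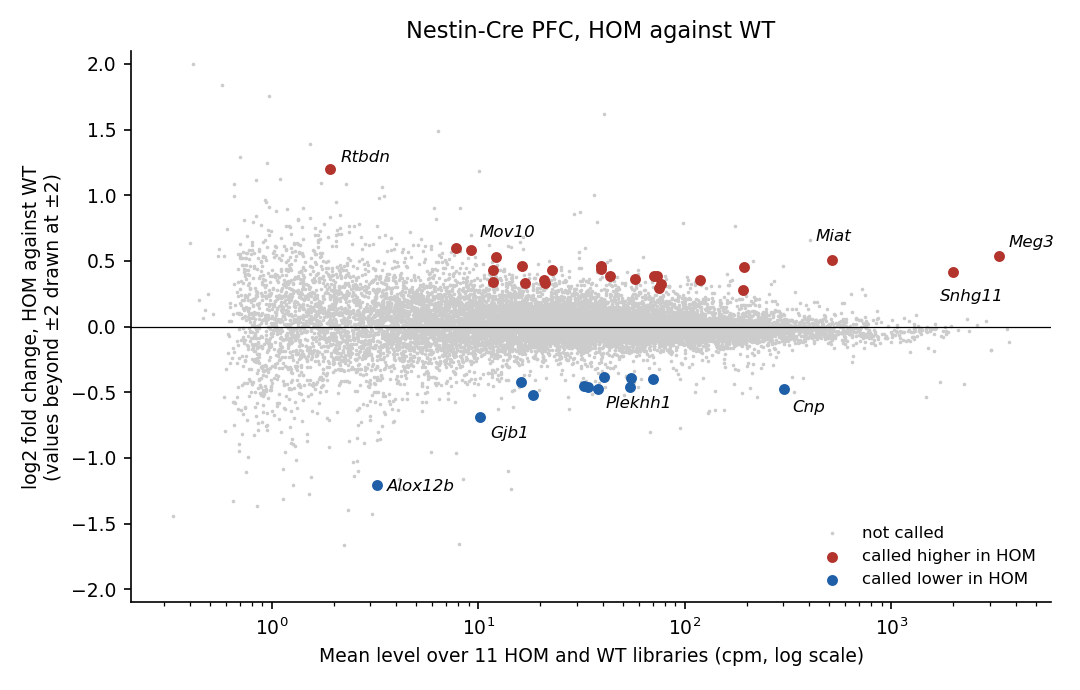
Mean level over the 11 HOM and WT libraries (cpm, log axis) against the log2 fold change of HOM over WT for all 14361 genes tested. The 25 genes called higher (red) and the 12 called lower (blue) lie mostly within a log2 fold change of 0.7, and Rtbdn and Alox12b are the 2 called genes beyond 1.

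Of the 12 genes called lower in HOM, 6 were on the list of oligodendrocyte genes used here. These were the gap junction protein Gjb1 (connexin 32), the transcription factor Myrf that switches on myelin genes, the lipid enzyme Fa2h that makes hydroxylated myelin lipids, the myelin enzyme Cnp, and the receptors Gpr37 and Lpar1, both carried by oligodendrocytes. They are the members called by the quasi-likelihood test from a list of 48 genes of mature oligodendrocytes and myelin, where 0.0836% of all genes were called lower, and none of the list was called higher. Of the same list the likelihood ratio test called 34 lower (0.905% of all genes) and DESeq2 25 (0.529%), and both called 0 higher.

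Gjb1 (chrX) had the lowest p of all genes. Its 4 HOM libraries held 7.22, 8.08, 7.98 and 5.92 cpm, and the WT libraries 10.7 to 12.8 cpm with a median of 11.8. Each HOM library thus lay below the lowest WT library, and the log2 fold change was -0.69 ± 0.10 (SE, edgeR adjusted p = 0.0239). Myrf (chr19) stood at 51.9, 44.4, 45.3 and 41.1 cpm in HOM, against 54.5 to 68.9 cpm in WT (median 58.0). The groups did not overlap here either, with a log2 fold change of -0.39 ± 0.08 (adjusted p = 0.0455).

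Fa2h (chr8) measured 27.6, 28.8, 27.5 and 21.2 cpm in HOM and 32.7 to 41.3 cpm in WT (median 35.1), again without overlap, for a log2 fold change of -0.45 ± 0.09 (adjusted p = 0.0455). For Gpr37 (chr6) the HOM values were 51.2, 40.0, 46.0 and 37.8 cpm and the WT range 54.5 to 68.6 cpm (median 60.6). The change was -0.46 ± 0.09 on the log2 scale (adjusted p = 0.0455), and every HOM library was under every WT library. Cnp, by far the most abundant of the 6, was at 295, 243, 245 and 183 cpm in HOM and at 288 to 407 cpm in WT (median 319). Here M4393 lay inside the WT range, the other 3 HOM libraries lay below it, and the log2 fold change was -0.48 ± 0.10 (adjusted p = 0.0817). Lpar1 overlapped more, with 2 HOM libraries (25.4 and 22.9 cpm) below the WT range of 30.5 to 43.2 cpm and 2 (30.8 and 30.7 cpm) just inside it, for a log2 fold change of -0.46 ± 0.10.

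Over the whole list of mature oligodendrocyte genes, 47 of 48 had a negative log2 fold change and the median was -0.41, beside 0.003 over all genes. An unadjusted p under 0.05 was reached by 37 members, each of them lower in HOM, where 3.48% of all genes tested were lower at that level. Myelin proteins had values of that size without passing the adjusted threshold of the quasi-likelihood test. By that test Mbp had a log2 fold change of -0.44 (adjusted p = 0.156), Mag of -0.43 (adjusted p = 0.157) and Mog of -0.39 (adjusted p = 0.387). Summed over the list, the level was 7798, 6163, 6223 and 5010 cpm in the HOM libraries and 7291 to 10427 cpm in WT (median 8176). M4393 fell inside the WT range, and the 3 others lay below it. In bulk tissue, fewer oligodendrocytes and less RNA per oligodendrocyte cannot be told apart. Markers of striatal projection neurons, a cell type of the neighbouring striatum, moved in the same direction, with a median of -0.42 and 33 of 34 negative. WT mouse M4394 had the highest WT sum of both lists (10427 and 3660 cpm) and HOM mouse M4580 the lowest HOM sum of both (5010 and 2174 cpm). Not all libraries paired in this way. WT mice M4329 (8606 and 2521 cpm) and M4609 (7657 and 2436 cpm) had lower striatal sums than HOM mouse M4569 (6223 and 2636 cpm). Their oligodendrocyte sums were higher than that of M4569. HOM mouse M4393 (7798 and 2477 cpm) lay near M4609 on both. Without M4394 the oligodendrocyte list had a median of -0.36 with 37 members lower at an unadjusted p under 0.05, and without M4580 one of -0.31 with 35 lower. The 6 called oligodendrocyte genes had higher WT means in striatum than in PFC, from 61.2 against 59.8 cpm for Myrf to 533 against 336 cpm for Cnp, with each region scaled on its own and no test made. M4580 also held 1020 cpm summed over olfactory bulb markers, against 336 to 438 cpm in the other HOM libraries and 301 to 884 cpm in WT. The part of the dissection in the oligodendrocyte values was not tested.

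Genes of the precursor stage gave no call. Of 26 tested genes of oligodendrocyte precursors and differentiating oligodendrocytes, none was called by edgeR's quasi-likelihood test or DESeq2 and 2 were called lower by the likelihood ratio test. At an unadjusted p under 0.05, 1 was higher and 3 were lower (6.28% and 3.48% of all genes), and the median log2 fold change was -0.07. The lowest p values belonged to Olig2 (-0.40, adjusted p = 0.25) and Sox10 (-0.33, adjusted p = 0.34), the factors that define the lineage, to Enpp6 (-0.36, adjusted p = 0.262), an enzyme of newly formed oligodendrocytes, and to the cadherin Pcdh15 (0.28, adjusted p = 0.375). The precursor receptor Pdgfra had a log2 fold change of -0.08 and the proteoglycan Cspg4 one of -0.04. Whether the 2 stages differ from each other was not tested.

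**Figure D2:**
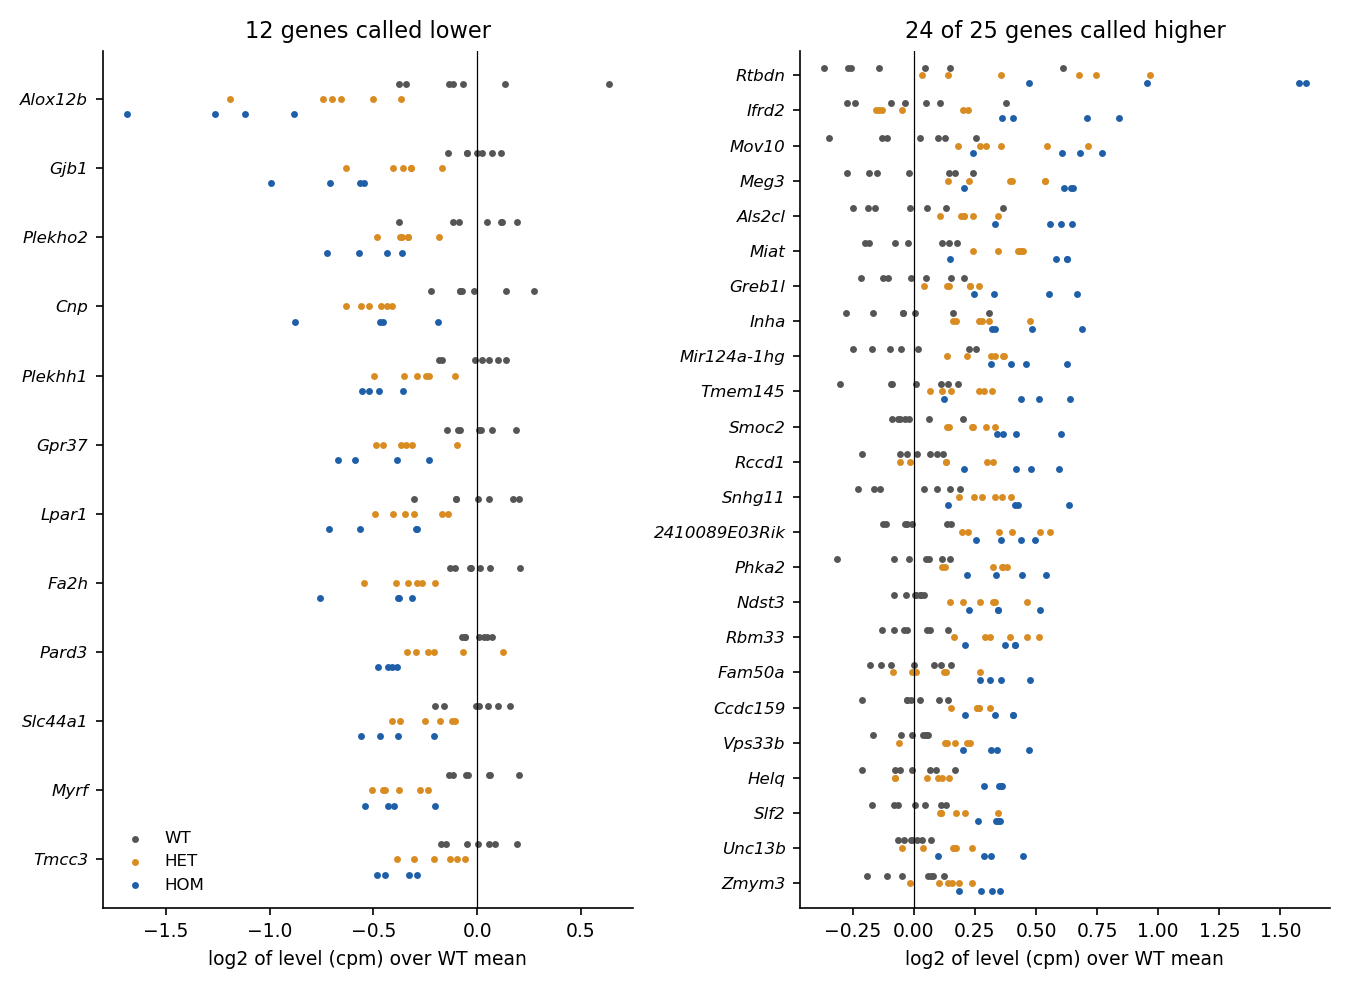
Level of each called gene in every library as the log2 ratio to the WT mean, for the 12 genes called lower (left) and 24 of the 25 called higher (right). Points are libraries of WT (grey, 7), HET (orange, 6) and HOM (blue, 4) mice, and the HOM points lie on 1 side of the WT mean for every gene drawn.

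The other 6 genes called lower were not on the myelin list, and whether oligodendrocytes carry them was not tested. Plekhh1 (chr12), a pleckstrin homology protein, stood at 30.3, 28.7, 32.9 and 29.3 cpm in HOM and at 37.1 to 46.4 cpm in WT (median 42.8), without overlap, for a log2 fold change of -0.47 ± 0.08 (adjusted p = 0.0274). Pard3, which sets up cell polarity, was tight in both groups, at 12.8 to 13.6 cpm in HOM against 16.9 to 18.7 cpm in WT (log2 fold change -0.42 ± 0.08, adjusted p = 0.0455). Alox12b, a lipoxygenase best known from skin, fell furthest: the HOM libraries held 1.69, 1.26, 1.87 and 2.2 cpm and the WT libraries 3.13 to 6.30 cpm (median 3.75). Its log2 fold change was -1.21 ± 0.22 (adjusted p = 0.0455) on counts that went down to 19 reads. Plekho2 (-0.52), the choline transporter Slc44a1 (-0.40) and Tmcc3 (-0.39), a membrane protein, completed the set, with 3 HOM libraries below the WT range for Plekho2 and all 4 for the others.

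The letters before the start sites of 2 of these oligodendrocyte genes are shown because the members fell together and because the lineage is driven by SOX factors and MYRF. Both windows hold the 250 bases before an annotated start, from RefSeq on GRCm38.p6, 5′ to 3′ on the plus strand, the strand of both genes. Cnp is at chr11:100574689-100574938 and Gjb1, for 1 of its 4 annotated starts, at chrX:101383482-101383731. Capitals mark the core letters searched on both strands, ACAAAG and ACAATG for SOX factors and CTGGCAC and CTGGTAC for MYRF.
Cnp: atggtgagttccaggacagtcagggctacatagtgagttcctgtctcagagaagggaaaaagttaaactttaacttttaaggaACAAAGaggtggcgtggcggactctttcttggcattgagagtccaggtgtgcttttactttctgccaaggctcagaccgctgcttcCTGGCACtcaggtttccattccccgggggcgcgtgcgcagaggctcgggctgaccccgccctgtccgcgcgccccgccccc
Gjb1: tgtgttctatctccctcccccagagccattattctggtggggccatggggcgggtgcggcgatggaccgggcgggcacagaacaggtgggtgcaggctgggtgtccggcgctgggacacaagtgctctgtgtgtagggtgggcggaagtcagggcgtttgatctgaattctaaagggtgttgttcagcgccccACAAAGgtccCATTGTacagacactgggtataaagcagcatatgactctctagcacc
The 2 windows were picked among those with matches, for the gene of lowest p and the most abundant of the 6. Of the other 3 Gjb1 windows 2 hold none and 1 holds 1, the 3 windows of Lpar1 each hold a match and Gpr37 has none. Cnp held ACAAAG and CTGGCAC, and this Gjb1 window held ACAAAG and, on the minus strand, ACAATG. Promoters were given for 10 of the 12 genes called lower, Myrf and Fa2h not being among them. SOX letters stood in a promoter of 5 of those 10 genes, and in 20.3% of all tested genes with a promoter. MYRF letters stood in 3 of the 10, and in 6.79% of all. A match of so few letters is a description and not a binding site, and genes with several annotated starts have more chances to hold one.

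Long non-coding RNAs (lncRNAs) were among the genes called higher. Of the 25, 4 are lncRNAs by their RefSeq class, namely Meg3, an imprinted transcript of the Dlk1-Dio3 region, Miat, a nuclear RNA of neurons, Mir124a-1hg, which hosts the neuronal microRNA miR-124, and Snhg11, a host of small nucleolar RNA. Meg3 was the most abundant gene called. The 4 HOM libraries held 4460, 4350, 4440 and 3270 cpm of it and the WT libraries 2350 to 3360 cpm (median 2800), for a log2 fold change of 0.54 ± 0.10 (adjusted p = 0.0455). M4580 fell inside the WT range and the other HOM libraries lay well above it.

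Miat had the same outline, with 673, 694, 695 and 499 cpm in HOM and 392 to 508 cpm in WT (median 442). Its log2 fold change was 0.51 ± 0.09 (adjusted p = 0.0274), and M4580 was again the one HOM library among the WT values. Mir124a-1hg did not overlap, at 235, 225, 264 and 213 cpm in HOM and 144 to 204 cpm in WT (log2 fold change 0.45 ± 0.09, adjusted p = 0.0455). For Snhg11 the HOM values were 2750, 2360, 2380 and 1950 cpm and the WT range was 1510 to 2020 cpm (0.41 ± 0.08, adjusted p = 0.0618).

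As a class, 471 lncRNAs were tested and the 4 called higher by the quasi-likelihood test are 0.849% of them, beside 0.174% of all genes. The likelihood ratio test called 19 higher and 5 lower (1.34% and 0.905% of all genes), and DESeq2 9 and 1 (1.04% and 0.529%). Of the class, 285 of them (60.5%) had a positive log2 fold change and the median was 0.06, beside 50.4% and 0.002 for 13779 protein-coding genes. At an unadjusted p under 0.05, 53 lncRNAs were higher and 10 lower, where 6.28% of all genes were higher and 3.48% lower. Their summed level was 14429, 13766, 14088 and 12143 cpm in HOM and 10132 to 11871 cpm in WT, so that the groups did not overlap. Much of that gap lay in the 4 called lncRNAs, whose sum had a mean of 7365 cpm in HOM and 5233 cpm in WT. The other 467 summed to 6311, 6136, 6309 and 6209 cpm in HOM and to 5547 to 6174 cpm in WT, with M4568 inside the WT range. Malat1 and Neat1, 2 abundant nuclear lncRNAs chosen after their values were seen, had log2 fold changes of 0.29 (adjusted p = 0.374) and 0.28 (adjusted p = 0.375). The genes called higher were also long: their median exon length was 5224 bases, against 3458 for the genes called lower and 3059 over all genes tested. The part of RNA quality in these values was not tested.

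The protein-coding genes called higher came from several functions. Smoc2 (chr17), a matrix protein that binds calcium, stood at 30.7, 27.0, 26.0 and 25.6 cpm in HOM and at 19.0 to 23.2 cpm in WT (median 19.7). The groups did not overlap, and the log2 fold change was 0.43 ± 0.07 (adjusted p = 0.0274). Ndst3, an enzyme that modifies heparan sulphate chains, held 60.8 to 74.4 cpm in HOM and 49.1 to 53.5 cpm in WT (0.36 ± 0.06, adjusted p = 0.0274).

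Rtbdn rose most, and it is a riboflavin-binding protein known from the retina. Its HOM libraries held 3.92, 3.85, 2.5 and 1.79 cpm and the WT libraries 1.00 to 1.97 cpm, which is a log2 fold change of 1.20 ± 0.24 (adjusted p = 0.058) with M4580 inside the WT range and counts down to 16 reads. Mov10, an RNA helicase that restrains retrotransposons, measured 12.5, 13.3, 11.9 and 9.23 cpm in HOM and 6.14 to 9.31 cpm in WT (0.58 ± 0.13, adjusted p = 0.0861). Ifrd2 (0.60), Als2cl (0.53), Greb1l (0.46), the inhibin subunit Inha (0.46), Tmem145 (0.44) and Rccd1 (0.43) were the others that rose most, with adjusted p values from 0.0455 to 0.0909. Greb1l, Inha and Rccd1 did not overlap between the groups, while Ifrd2, Als2cl and Tmem145 each had 1 HOM library within the WT range. Synaptic release is represented by Unc13b, which readies vesicles for fusion, at a log2 fold change of 0.29 ± 0.06 (adjusted p = 0.0832).

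One called gene lies close to the changed locus. 2410089E03Rik, on the same chromosome as Gdnf at chr15:8169106-8271158 (mm10) and 0.332 Mb from it, stood at 76.5, 90.4, 86.8 and 82.0 cpm in HOM and at 58.7 to 71.2 cpm in WT (median 62.8). The groups did not overlap, and the log2 fold change was 0.39 ± 0.08 (adjusted p = 0.0455). Within 20 Mb of Gdnf, 60 genes were tested, this 1 was called (1.67%, beside 0.258% of all genes), and the median log2 fold change was -0.05. Of the 60, 21 had a positive log2 fold change (50.8% of all genes). By edgeR's quasi-likelihood test 2 were higher and 4 lower at an unadjusted p under 0.05 (6.28% and 3.48% of all genes). The nearest tested neighbour by distance in that set, Wdr70, 0.0355 Mb away and chosen here for its place, had a log2 fold change of -0.38 ± 0.11 (adjusted p = 0.168). DNA near Gdnf is inherited with the allele in a mixed background. In the PFC of HOM mice given Cre in the adult striatum by an AAV, 2410089E03Rik had a log2 fold change of -0.17 (edgeR unadjusted p = 0.0412). Wdr70 had one of -0.06 there (unadjusted p = 0.345). The difference between the models passed edgeR's interaction test for 2410089E03Rik (0.55, adjusted p = 0.00985) and not for Wdr70 (-0.32, adjusted p = 0.148). The part of linked strain DNA at these genes was not tested.

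The receptors that GDNF acts on gave no call. Of 15 genes of GDNF family ligands and receptors, 9 were tested and none was called by edgeR's quasi-likelihood or likelihood ratio test or by DESeq2, with 2 lower and 0 higher at an unadjusted p under 0.05 (3.48% and 6.28% of all genes). Gfra1, the receptor that binds GDNF, held 43.3, 34.5, 37 and 39.3 cpm in HOM and 39.9 to 51.3 cpm in WT, a log2 fold change of -0.20 ± 0.09 (unadjusted p = 0.0428, adjusted p = 0.488 by edgeR). Ret had one of -0.38 ± 0.18 (unadjusted p = 0.0451, adjusted p = 0.495), the neurturin receptor Gfra2 of -0.14 (adjusted p = 0.69), and Lrig1, a restrainer of receptor kinases, of -0.23 (adjusted p = 0.64). The median over the 9 was -0.14.

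Dopamine signalling genes had larger but more variable differences. Of 20 tested genes of the dopamine system, none was called by edgeR's quasi-likelihood test, while its likelihood ratio test called 8 lower, Adora2a, Drd1 and Drd2 among them, and DESeq2 called 1. By the quasi-likelihood test 8 were lower at an unadjusted p under 0.05 and 0 higher, where 3.48% and 6.28% of all genes were, and the median was -0.32. Adora2a, the adenosine receptor that opposes dopamine D2 signalling, held 9.18, 6.76, 12.1 and 3.03 cpm in HOM and 10.3 to 29.7 cpm in WT (median 17.1). With 3 HOM libraries below the WT range, its log2 fold change was -1.23 ± 0.36 (edgeR adjusted p = 0.191). Drd2 (-1.16 ± 0.42, adjusted p = 0.326) and Drd1 (-0.63 ± 0.25, adjusted p = 0.386), the main dopamine receptors, and Drd5 (-0.57 ± 0.18, adjusted p = 0.23), a receptor related to D1, had negative values too. Adcy5, the adenylyl cyclase of striatal neurons, had a value of -0.33 (adjusted p = 0.156) and Qdpr, which renews the cofactor of dopamine synthesis, of -0.31 (adjusted p = 0.23).

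Of the 6, Adora2a, Drd2, Drd1 and Adcy5 are also on the list of striatal projection neuron markers, while Qdpr is on that of mature oligodendrocytes and Drd5 on neither. Of 34 tested striatal markers none was called by the quasi-likelihood test, while 22 were called lower by the likelihood ratio test and 6 by DESeq2. By the first, 22 were lower and 0 higher at an unadjusted p under 0.05 (3.48% and 6.28% of all genes), 33 had a negative log2 fold change, and the median was -0.42. The lowest p values, beside that of Adcy5, included those of Gpr6 (-1.03, adjusted p = 0.147) and Penk (-0.66, adjusted p = 0.156). The summed level of the list was 2477, 2199, 2636 and 2174 cpm in HOM and 2436 to 3660 cpm in WT (median 2843). Of the HOM libraries 2 lay below the WT range and 2 inside it under the WT median, and the part of striatal tissue at the edge of the dissection in the dopamine values was not tested. In contrast, 30 markers of cortical excitatory neurons had a median of -0.03 and summed levels of 7439 to 8661 cpm in HOM and 7390 to 9466 cpm in WT.

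**Figure D3:**
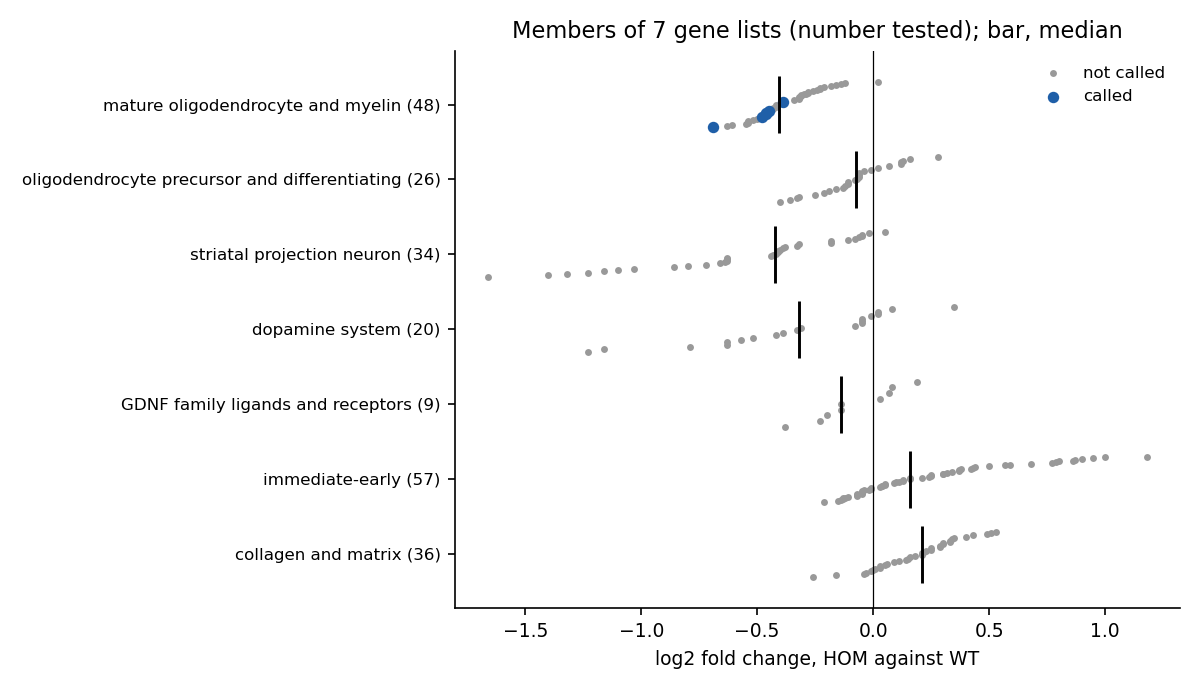
log2 fold change of HOM over WT for each tested member of 7 gene lists, with the number tested in brackets and the median as a bar. Genes called by edgeR's quasi-likelihood test (blue) occur only in the mature oligodendrocyte list of those shown, whose median was -0.41.

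Activity-dependent genes were spread widely among the HOM mice. None of 57 tested immediate-early genes was called by edgeR's quasi-likelihood test or DESeq2, while the likelihood ratio test called 17 higher. By the first, 7 were higher and 0 lower at an unadjusted p under 0.05 (6.28% and 3.48% of all genes), and the median was 0.16. Arc, a synaptic gene switched on by activity, held 61.1, 140, 303 and 444 cpm in HOM and 76.7 to 253 cpm in WT (0.77 ± 0.42, adjusted p = 0.623). The 4 HOM values reached from below the lowest to above the highest WT library, and the same was seen for Junb (10.3, 46.8, 35.8 and 69.5 cpm, against 11 to 35.4 cpm). Btg2 (0.87 ± 0.42, adjusted p = 0.514), Nr4a1 (0.79, adjusted p = 0.42), Npas4 (0.80, adjusted p = 0.49) and Per1 (0.37, adjusted p = 0.344) were likewise uncertain. Inf2, a formin that shapes actin and no immediate-early gene, had a log2 fold change of -0.29 ± 0.12 (adjusted p = 0.401).

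No collagen gene was called by edgeR's quasi-likelihood test, while 5 members of the collagen and matrix list were called higher by its likelihood ratio test and 2 by DESeq2. Of 36 tested collagen and matrix genes 30 had a positive log2 fold change (50.8% of all genes), 7 were higher and 0 lower at an unadjusted p under 0.05 (6.28% and 3.48% of all genes), and the median was 0.21. Col6a1, of the collagen VI microfibrils, held 182, 213, 178 and 189 cpm in HOM and 119 to 200 cpm in WT (0.40 ± 0.11, adjusted p = 0.147). Col26a1 did not overlap, at 8.20 to 9.60 cpm in HOM against 4.05 to 7.83 cpm in WT (0.51 ± 0.15, adjusted p = 0.189). Col4a1, of basement membranes, and Col19a1 each had a log2 fold change of 0.30 (adjusted p = 0.237). Markers of meningeal fibroblasts and mural cells, which make collagen, had a median of 0.02 over 30 genes, with summed levels of 1580 to 1763 cpm in HOM and 1306 to 1765 cpm in WT.

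**Figure D4:**
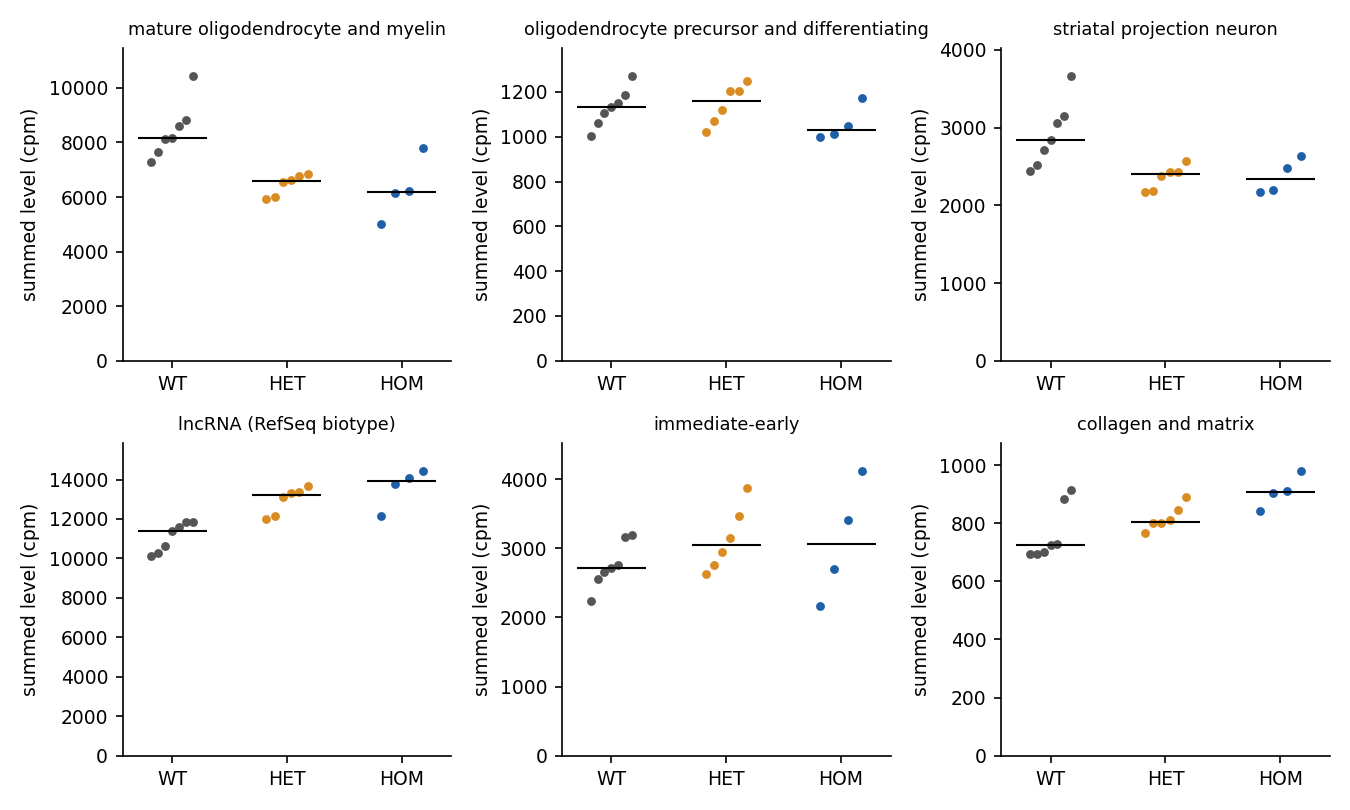
Summed level (cpm, axes from 0) of 6 gene groups in each library of WT (grey), HET (orange) and HOM (blue) mice, with the median as a bar. The lncRNA sums of HOM (12143 to 14429 cpm) lie above all WT sums, 3 of 4 HOM sums for mature oligodendrocyte genes lie below all WT sums, and the immediate-early sums of HOM spread from 2164 to 4118 cpm.

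Most other lists stayed near the median of all genes. Interneuron (0.02), astrocyte (-0.02), microglia (-0.04) and endothelial (-0.06) markers had medians close to 0, as did glutamate receptors (0.01), GABA receptors (-0.02), ribosomal proteins (-0.05) and nuclear-encoded respiratory chain genes (-0.05), and none of their members was called by edgeR's quasi-likelihood test, beside 5 calls by the likelihood ratio test and 2 by DESeq2 over these 8 lists. Small as they were, the values were negative for 63 of 75 respiratory chain genes and 58 of 72 ribosomal protein genes, where 50.8% of all genes had a positive one. Of these 2 lists 4 and 2 genes were lower at an unadjusted p under 0.05, and 0 were higher (3.48% and 6.28% of all genes). Farther out were choroid plexus markers, with a median of -0.23 over 9 tested and 3 lower at an unadjusted p under 0.05 (3.48% of all genes), and blood markers, with one of -0.66 over the 2 tested. The likelihood ratio test called 2 and 1 of these lower, and the other tests none. A list of 57 schizophrenia-associated genes that the study chose on these very samples is no independent evidence of direction. Of 56 tested, the quasi-likelihood test called 3 higher (Mov10, Ndst3 and Als2cl) and 1 lower (Cnp), beside 0.174% and 0.0836% of all genes. For the same list the likelihood ratio test called 28 higher and 24 lower (1.34% and 0.905% of all genes), and DESeq2 11 and 7 (1.04% and 0.529%). By the quasi-likelihood test 21 were higher and 21 lower at an unadjusted p under 0.05 (6.28% and 3.48% of all genes).

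HET mice, which carry 1 copy of the allele, shared their WT controls with the HOM comparison, so the values only stand side by side. In HET against WT, 91 genes were called (0.634%). Gjb1 had a log2 fold change of -0.36 in HET and -0.69 in HOM, Cnp of -0.50 and -0.48, Myrf of -0.38 and -0.39, Meg3 of 0.38 and 0.54, Mov10 of 0.40 and 0.58, and Ifrd2 of 0.00 and 0.60. The summed mature oligodendrocyte level of HET libraries ran from 5927 to 6852 cpm, below all WT libraries. Striatal projection neuron markers had a median of -0.48 in HET and sums of 2175 to 2564 cpm, against 2436 to 3660 cpm in WT, and their part in the HET values was not tested.

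The striatum (STR) of the same line gave no call. In HOM against WT of STR, from 5 and 6 libraries largely of the same mice, 0 genes were called by edgeR, with 471 at an unadjusted p under 0.05. The interaction between PFC and STR was called for 0 of 14865 genes by the quasi-likelihood test (287 at an unadjusted p under 0.05) and for 53 by the likelihood ratio test. Among the genes called in PFC, Meg3 had a log2 fold change of 0.48 in STR, Miat of 0.35, Smoc2 of 0.77 and Rtbdn of 1.25, while Gjb1 had one of -0.24, Plekhh1 of 0.04 and Myrf of -0.02. All 25 genes called higher had a positive value in STR, and 10 of the 11 tested there of those called lower a negative one, where 64.6% of all genes had the same sign in both regions. In the substantia nigra (SN) 0 genes were called by edgeR and 707 had an unadjusted p under 0.05. There Meg3 had a value of 0.82, Gjb1 of -0.30 and Cnp of -0.41, and the sign was that of PFC for all 25 genes called higher and all 12 called lower, against 64.5% of all genes. The regions come largely from the same mice, so these signs are no independent repeat.

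The PFC of mice in which Cre was delivered to the adult striatum by an AAV did not share the rise of the called genes. Those mice are different animals, aged 5 to 7 months and injected at 3 to 5 months, with 8 HOM and 7 WT libraries, and in them the PFC itself was not the site of injection. In their own comparison 2 genes were called (0.0137%). Of the 25 genes called higher in Nestin-Cre PFC, 1 had a positive log2 fold change in AAV-Cre PFC, 12 were lower there at an unadjusted p under 0.05 (7.24% of all genes), and the median was -0.17. Over all genes tested in both, 40.4% had the same sign in the 2 models. Of the 12 genes called lower, 7 had the same sign in AAV-Cre PFC, and their median there was -0.04.

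The difference between the models was tested directly by the interaction, which passed for 516 genes (3.5%). Without HOM mouse M4568 that count was 176 and without M4569 it was 211. It passed for 24 of the 25 genes called higher and 8 of the 12 called lower, and the Nestin-Cre side of that test is the contrast that picked these genes. Mov10 had log2 fold changes of 0.58 in Nestin-Cre and -0.50 in AAV-Cre PFC (interaction adjusted p = 0.00115), Mir124a-1hg of 0.45 and -0.24 (adjusted p = 0.000959), Meg3 of 0.54 and -0.24 (adjusted p = 0.00287), and Snhg11 of 0.41 and -0.26 (adjusted p = 0.00261). Gjb1 had values of -0.69 and 0.10 (adjusted p = 0.0155), and Myrf, at -0.39 and -0.09, did not pass (adjusted p = 0.13). Among 514 genes that passed and were tested in both, the difference was positive for 407 and negative for 107. The 2 models also differ in age and in where and when Cre acted, and these cannot be told apart.

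**Figure D5:**
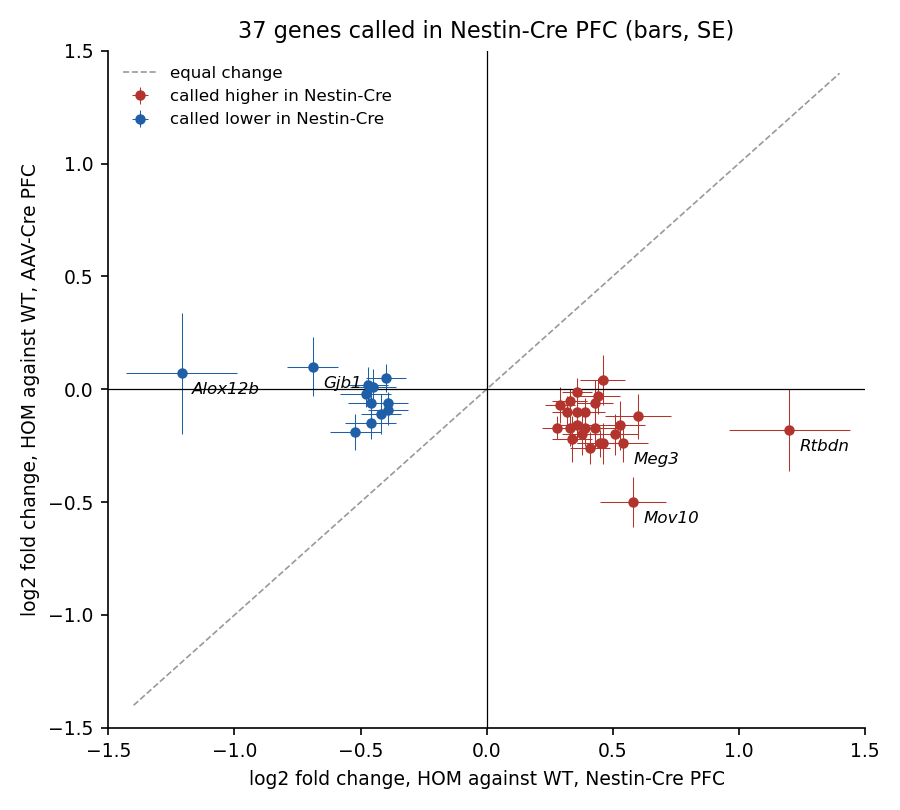
log2 fold change of HOM over WT in Nestin-Cre PFC (horizontal) and in AAV-Cre PFC (vertical) for the 37 genes called in Nestin-Cre PFC, with standard errors as bars. Of the 25 genes called higher (red), 24 lie below 0 on the vertical axis, and the 12 called lower (blue) lie around 0.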

How the data were processed

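RNA was measured in poly(A)-selected, stranded libraries of dissected brain regions. The authors deposited raw read counts of 24412 genes in each library, and 0 value columns were left unused. The submitters' processing notes name bcl2fastq 2.20.0.422, STAR 2.5.2b, featureCounts 1.5.1 and the build mm10. Counts of genes that overlap others or have near copies are less certain.

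From these counts, the 17 PFC libraries of Nestin-Cre mice (7 WT, 6 HET, 4 HOM) were fitted together in R 4.3.3 with edgeR 4.0.16: genes with at least 1 cpm in 3 libraries, TMM scaling, trended dispersion, glmQLFit and the two-sided glmQLFTest, Benjamini-Hochberg over all genes, threshold 0.1. Filter and threshold follow the study's methods. Levels are TMM-scaled cpm, and medians and ranges are over libraries. Differences between regions and models were tested as interactions. The methods were tested on simulated data with 200 changed genes. For HOM against WT in PFC, 100% of 2-fold and 97% of 1.5-fold changes were recovered, and 23 of 220 calls were false. The interaction of PFC with STR recovered 95% and 50%, and that of Nestin-Cre with AAV-Cre 97% and 81%. Alternatives were the likelihood ratio test, DESeq2 1.42.0, its size factors, other filters, other sets of libraries, a threshold of 0.05 and leaving out each mouse. PFC and STR libraries of the same number come from the same mouse: after removing group means their median correlation was 0.272 over 15 mice (0.123 to 0.492), against -0.0138 between different mice. Within PFC each library is a separate mouse, and no 2 Nestin-Cre PFC libraries of the same genotype agreed within counting noise.

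The members and gene lists were chosen with earlier results of these data known. Named genes are the 12 that rose and 12 that fell most among called genes (mean level 1 cpm or more, all HOM libraries on 1 side of the WT mean), the 4 members of lowest p in each list described, Gdnf, Adora2a, Drd1, Drd2, Arc, Btg2 and Inf2, and called genes within 20 Mb of Gdnf. Ndst3, Unc13b, Peg3, Wdr70, Malat1, Neat1, Snhg11, Mbp, Mag, Mog, Pdgfra and Cspg4 and the further called genes were picked outside it, with their values known. A few genes that the rule or the lists take in are not reported here. Promoter sequences and gene classes are from RefSeq (GRCm38.p6).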

Additional observations from a re-analysis of the deposited data

Results flagged for a closer look

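Single libraries stood apart from the rest of their group in 17 of 273 groups examined (6.23%). Chance alone also sets single libraries apart, at a rate that was not measured for these groups. In 6 of the 17 the library was that of the HOM mouse M4580, the lowest of its group with 499 cpm of Miat, 3270 cpm of Meg3 and 18.8 cpm of Helq, and the highest with 39.1 cpm of Pcdh15, 0.62 cpm of Gdnf and a sum of 1020 cpm over olfactory bulb markers, where the other 3 HOM libraries held 336 to 438 cpm. In WT mice, M4394 held 6.3 cpm of Alox12b, 19.3 cpm of Drd2 and a sum of 391 cpm over choroid plexus markers, and M4396 held 53.4 cpm of Btg2. In HET mice, M4578 held 18.4 cpm of Vps33b and M4566 held 52.1 cpm of Junb. The other sums that stood apart were 9466 cpm of cortical excitatory markers in WT M4609, 11343 cpm of respiratory chain genes in WT M4326, 2689 and 2890 cpm of GABA receptors in WT M4329 and HOM M4568, and 1188 cpm of endothelial markers in HET M4577.

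The HOM effect differed between Nestin-Cre and AAV-Cre PFC, by the edgeR interaction, for 34 of the 63 genes reported and tested for it, beside 3.5% of all genes. Of the 34, 31 are genes called in Nestin-Cre PFC, and that contrast is 1 side of this difference. The values that follow are Nestin-Cre minus AAV-Cre on the log2 scale. Among lncRNAs the difference was 0.77 for Meg3, 0.7 for Miat, 0.69 for Mir124a-1hg and 0.67 for Snhg11. Of protein-coding genes called higher, the largest differences were 1.37 for Rtbdn and 1.08 for Mov10. Ifrd2 (0.71), Inha (0.69), Als2cl (0.68), Rccd1 (0.6), 2410089E03Rik (0.55), Ccdc159 (0.55), Rbm33 (0.51) and Helq (0.5) followed. Smaller positive differences were those of Smoc2 (0.49), Phka2 (0.48), Tmem145 (0.46), Fam50a (0.45), Zmym3 (0.44), Slf2 (0.42), Vps33b (0.38), Ndst3 (0.36) and Unc13b (0.36).

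Collagen genes that were not called in Nestin-Cre PFC also differed, Col26a1 by 0.78, Col6a1 by 0.73 and Col4a1 by 0.52. The genes called lower had negative differences, of -1.29 for Alox12b, -0.8 for Gjb1, -0.5 for Plekhh1, -0.47 for Fa2h, -0.46 for Cnp, -0.46 for Slc44a1, -0.4 for Gpr37 and -0.33 for Tmcc3. Age, the time of recombination and its place differ between the models as well and cannot be told apart from one another.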

How the results depend on the processing

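The 37 genes called kept the sign of their change under each of 19 alternatives, while the number called did not hold. The likelihood ratio test called 323 genes (193 higher, 130 lower), DESeq2 226 (150 and 76), a fit of HOM and WT alone 7 (4 and 3), a fit of all 3 regions 1 (0 higher and 1 lower), and a threshold of 0.05 left 17 (9 higher). Without a filter 27 genes were called, 13 of them higher. With M4575 as WT 36 were called, and with DESeq2's size factors 38. Leaving out each mouse in turn gave 1 to 159 genes, 0 to 115 higher and 1 to 44 lower. The interaction of PFC with STR was called for 0 genes with the mouse as a block, as without it, and for 53 genes by the likelihood ratio test. The interaction of Nestin-Cre with AAV-Cre was called for 320 genes without a filter and for 176 to 699 when each HOM mouse was left out. The cause of these shifts was not tested. For the genes named, 974 values stayed on their side of the threshold, 294 lost and 32 gained the call, and 0 turned in sign. With 4 HOM mice of lower depth than WT, genes under 5 cpm, such as Alox12b and Rtbdn, rest on few reads.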
